A study of Mus musculus with 94 samples.

Results

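The values below are the transcript levels of 37 genes of DNA replication and S phase in 94 mouse 4T1 tumors. The 37 genes were listed by name and role, with no cut on measured values, and were taken from a table of 49080 genes. All 37 passed the filter on low counts in every fit. 4T1 is a mammary carcinoma cell line of the BALB/c mouse, and its cells were injected under the skin of the right hind limb of female BALB/c mice at the age of 8 weeks. Once tumors had formed, 24 of the mice received 6 Gy + INDO, 25 received 6 Gy alone, 25 received INDO alone and 20 were untreated controls. A dose of 6 Gy was a single exposure of the tumor-bearing leg to x-rays. INDO is indomethacin, an inhibitor of the cyclooxygenases COX1 and COX2, given at 30 mg/L in the drinking water. Tumors were taken on days 1, 3, 7, 15 and 23 after irradiation, with 5 tumors a group except 4 on day 3 for 6 Gy + INDO, 4 on day 1 for controls and 3 each on days 15 and 23 for controls. All groups carried the same cell line in the same strain, the hosts kept their own immune system, and each library was total RNA of whole tumor, so tumor cells and host cells were read together. Tumors of a group carry only a replicate number in the labels, and p-values measure the spread between these tumors.

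A cell licenses its origins of replication in G1, when the origin recognition complex with CDC6 and CDT1 loads the MCM2-7 helicase onto DNA. In S phase CDC45, the GINS complex and MCM10 turn the helicase on, primase and DNA polymerase alpha start each strand, the clamp PCNA is loaded by replication factor C, and polymerases delta and epsilon extend. FEN1 and LIG1 join the lagging strand, RPA covers single-stranded DNA, and ribonucleotide reductase, thymidylate synthase and thymidine kinase supply nucleotides. Transcription of many of these genes is driven by E2F factors as cells pass from G1 into S phase, and cyclin E acts at the same step. Mki67 encodes Ki-67, a chromosome protein present in cycling cells and widely used to mark proliferation.

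Library totals ranged between 21 and 109 M counts (mega counts), with medians of 37.5 M in 6 Gy + INDO tumors, 66.6 M in 6 Gy tumors, 41 M in INDO tumors and 73.4 M in controls. The epithelial genes Krt8, Krt18, Epcam and Cdh1 had median levels over the 94 tumors of 747, 864, 317 and 319.8 CPM (counts per mega counts of the library). These levels fit the labelled epithelial cell type. The other epithelial markers read, Krt7, Krt14, Krt19 and Krt5, had medians of 385, 157, 52.5 and 1.62 CPM. Krt14 ranged from 25.1 to 1196 CPM and Krt5 from 0 to 561 CPM. In 11 tumors olfactory and vomeronasal receptor genes, which such tumors should hardly use, together took over 300 CPM. Of these 11 tumors, 8 were 6 Gy + INDO, 2 INDO and 1 control, and they included 3 of the 4 6 Gy + INDO tumors of day 3 and 3 of the 5 of day 7. For the 37 genes, the counts of calls without these tumors are given below, with names and values for some of the calls lost. Calls of genes outside the 37 are not marked in this way, apart from Mki67.

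Sequence upstream of the genes was read first, because E2F sites are the best known shared feature of replication gene promoters. RefSeq promoter windows on GRCm38.p6, from 250 bases before to 50 bases after a gene's start, could be matched for 30 of the 37 genes. The E2F octamers TTTCGCGC and TTTGGCGC were searched on both strands. Where a gene had several windows, a match in any of them counted. At least 1 octamer was found for 10 of the 30 genes (33.3%), against 0.929% of 27025 genes with a window. CCAAT was found for 18 of 30 genes (60%), against 41.1% of all genes, and TTTGAA, the cell cycle homology region, in 4 of 30 (13.3%), against 20.2%, each on both strands. Stretches of Mcm5, Mcm6 and Pola1 are shown, chosen with their levels known. On day 7 Mcm5 and Mcm6 were lower in 6 Gy + INDO tumors, while Pola1, with the same octamer, was among the less changed genes. Of other genes lower in that comparison, Mcm3, Mcm7, Cdt1 and Uhrf1 had an octamer. None was found for Fen1, Rpa2, Pcna, Rfc4, Rrm1, Rrm2, Ccne1, Orc6, Cdc6 and Prim1, and Mcm4, Gins2 and Rfc2 had no matched window. Each stretch is written 5′ to 3′ on the gene's strand with the octamer, and where octamers of both strands overlap their whole span, in capitals.
Mcm5, chr8:75109340-75109379, plus strand: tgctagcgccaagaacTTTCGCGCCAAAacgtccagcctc
Mcm6, chr1:128359792-128359831, minus strand: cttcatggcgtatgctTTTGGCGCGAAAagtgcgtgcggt
Mcm6, chr1:128359729-128359768, minus strand: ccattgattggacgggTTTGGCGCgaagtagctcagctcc
Pola1, chrX:93632270-93632309, minus strand: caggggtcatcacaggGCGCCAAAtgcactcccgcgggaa
A match of letters is a description of the sequence and not a bound site.

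The 37 genes covered a wide range of levels. Divided by exon length, the median over tumors was highest for Pcna, the sliding clamp, at 51.2 CPM per kb of exon, a level close to the 46.5 CPM per kb of Mki67. The helicase genes Mcm6, Mcm5, Mcm4 and Mcm7 had 33.2, 29.2, 28.3 and 27.6 CPM per kb, and Rrm2, the small subunit of ribonucleotide reductase, 27.6 CPM per kb. Orc1, the largest origin recognition subunit, and Ccne1, cyclin E1, were lowest, at 2.35 and 2.44 CPM per kb. These medians are levels and not differences between groups.

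The mean of log2(CPM + 0.5) over the 37 genes was compared as a description across groups. In 6 Gy + INDO tumors the group mean was 5.51, 5.10, 5.06, 5.11 and 5.13 on days 1, 3, 7, 15 and 23. In 6 Gy tumors it was 5.67, 5.59, 5.48, 5.08 and 5.06, in INDO tumors 5.47, 5.19, 5.17, 5.34 and 5.16, and in controls 5.61, 5.43, 5.45, 5.43 and 5.00. The 6 Gy + INDO tumors were thus at their later level by day 3, and the 6 Gy tumors stayed near controls through day 7. On day 23 the groups lay close together, and the SD over the 3 controls, 0.475, was the widest of any group.

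**Figure D1:**
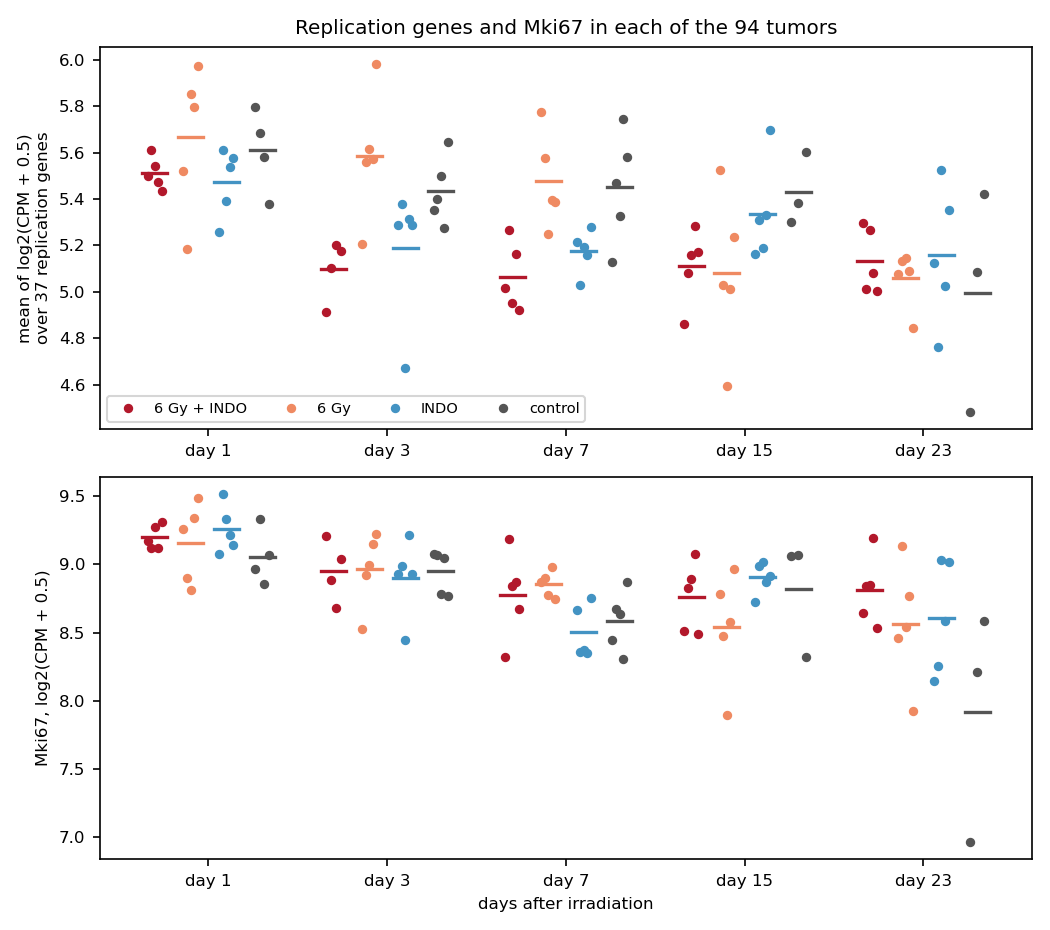
Mean log2(CPM + 0.5) over the 37 replication genes (top) and log2(CPM + 0.5) of Mki67 (bottom) against days after irradiation; each point is 1 tumor, bars are means, and colours are the treatments. On day 3 the 6 Gy + INDO tumors lay between 4.91 and 5.20 for the replication genes, below the controls at 5.27 to 5.65, while Mki67 levels of the 2 groups overlapped.

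Each treatment was compared with the controls of the same day with edgeR, and a gene counted as called when its adjusted p, by Benjamini-Hochberg over all genes tested, was under 0.05. The 3 treatments of a day share their controls. Shares of all genes are those of the edgeR test unless another fit is named. Counts by DESeq2, at an unadjusted p under 0.05 or with housekeeping scaling have no share over all genes beside them. They are not set against a background. The map of log2 fold changes shows every gene in each of the 15 daily comparisons.

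**Figure D2:**
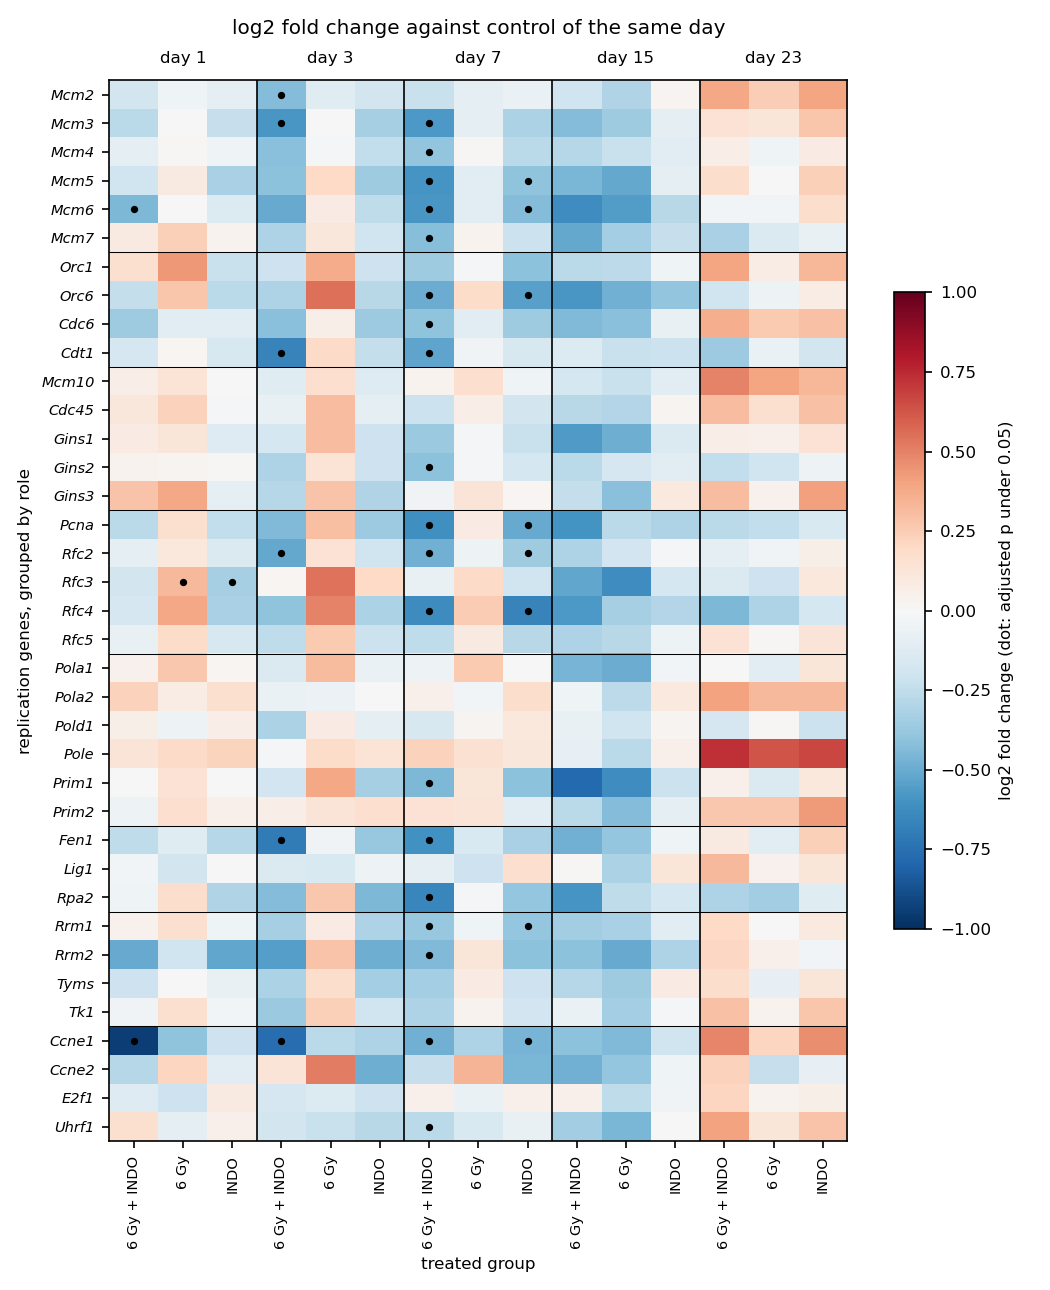
Log2 fold change against control of the same day (colour scale) for the 37 replication genes in rows, grouped by role, and the 15 daily comparisons in columns; marked cells passed an adjusted p of 0.05. Called genes were concentrated in the 6 Gy + INDO column of day 7, with 19 of 37 lower, and no gene was called on days 15 and 23.

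On day 1 few replication genes differed. In 6 Gy + INDO tumors 2 of 37 were lower and none higher, where 13.3% of all genes were lower and 10.7% higher, so the share of the replication genes, 5.41%, was under the background. Ccne1 had 3.85, 4.88, 4.16, 5.85 and 4.66 CPM in 6 Gy + INDO tumors, 6.69, 4.05, 6.68, 7.06 and 9.32 in 6 Gy tumors and 6.31, 8.79, 6.76, 7.93 and 8.26 in INDO tumors, against 10.4, 9.22, 9.19 and 7.26 in controls. Every 6 Gy + INDO tumor was below every control for this G1/S cyclin (log2 fold change -0.94 ± 0.19, adjusted p = 0.00133). Mcm6 had 114, 119, 111, 127 and 133 CPM in 6 Gy + INDO tumors, against 183, 181, 159 and 138 CPM in controls (log2 fold change -0.45 ± 0.14, adjusted p = 0.024). The helicase gene did not overlap between these groups either, and its call was lost in 4 of the 19 fits that left out 1 tumor. In all, 3 genes lay below and 1 above all controls without overlap, against 13.7% and 11.5% of all genes; for 6 Gy there was none (8.92% below and 4.39% above of all genes), and for INDO 1 below (12.1%) and none above (6.23%).

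Rfc3, a subunit of the clamp loader, moved in opposite directions under the single treatments. Rfc3 had 37.5, 49.4, 40.3, 36.1 and 37.4 CPM in 6 Gy + INDO tumors, 47.4, 54.7, 63.97, 59.1 and 60.5 in 6 Gy tumors and 37.3, 36.5, 33.5, 37.4 and 32.7 in INDO tumors, against 48.4, 38.2, 46.3 and 50.5 in controls. The 6 Gy tumors were higher (log2 fold change 0.32 ± 0.11, adjusted p = 0.0444) with 1 tumor inside the control range, and the INDO tumors were all below the controls (log2 fold change -0.34 ± 0.11, adjusted p = 0.0389). It was the only called gene of the 37 in either comparison, against 6.15% higher and 9.43% lower of all genes for 6 Gy, and 5.81% higher and 8.89% lower for INDO. The 6 Gy call was lost in 12 of 19 fits without 1 tumor, and the INDO call in 6 of 19. Without the tumors with receptor gene counts neither passed (adjusted p = 0.0521 for 6 Gy and 0.0742 for INDO), while Rrm2 did in INDO tumors (log2 fold change -0.61, adjusted p = 0.0469). Pcna had 133, 142, 132, 143 and 123 CPM in 6 Gy + INDO tumors, 133, 101, 233, 211 and 229 in 6 Gy tumors and 97.9, 139, 127, 152 and 157 in INDO tumors, against 177, 163, 174 and 139 in controls. Mcm2 had 81.1, 89.5, 84.3, 80.3 and 83.8 CPM in 6 Gy + INDO tumors, 100.3, 72.9, 90.4, 88.7 and 109 in 6 Gy tumors and 77.2, 97.02, 82.6, 89.4 and 91.2 in INDO tumors, against 118, 107, 83.4 and 73.8 in controls. Rrm2 had 93.7, 117, 113, 117 and 77.5 CPM in 6 Gy + INDO tumors, 105, 80.4, 149, 139 and 166 in 6 Gy tumors and 79.8, 94.9, 89.98, 117 and 122 in INDO tumors, against 165, 159.6, 146 and 121 in controls. With all tumors these 3 genes did not pass the test in any comparison of day 1, and for Rrm2 every 6 Gy + INDO tumor was below every control (adjusted p = 0.0569).

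On day 3, in 6 Gy + INDO tumors, 6 of 37 genes were lower, Ccne1, Rfc2, Fen1, Mcm3, Cdt1 and Mcm2, and none was higher, where 9.43% of all genes were lower and 10.1% higher. The share of the replication genes was 16.2%, and the median log2 fold change over all 37 was -0.31, against -0.02 over all genes. Ccne1 had 4.15, 4.94, 4.601 and 5.34 CPM in 6 Gy + INDO tumors, 4.34, 6.49, 6.89, 6.93 and 9.81 in 6 Gy tumors and 7.26, 6.72, 5.82, 7.798 and 5.597 in INDO tumors, against 7.01, 8.68, 8.36, 7.84 and 9.56 in controls. The 6 Gy + INDO tumors did not overlap the controls (log2 fold change -0.76 ± 0.19, adjusted p = 0.0101), and 1 of the 6 Gy tumors was as low as they were. Rfc2 had 26.4, 31.1, 37.9 and 34.7 CPM in 6 Gy + INDO tumors, against 39.1, 46.7, 51.9, 44.1 and 56.4 CPM in controls (log2 fold change -0.52 ± 0.14, adjusted p = 0.0145). Fen1 had 18.2, 18.6, 26.4 and 28.1 CPM in 6 Gy + INDO tumors, against 33.6, 38.6, 40.8, 29.9 and 46.98 CPM in controls (log2 fold change -0.70 ± 0.20, adjusted p = 0.0199). Fen1, the flap endonuclease of the lagging strand, and Rfc2, a clamp loader subunit, were thus both below every control in all 4 6 Gy + INDO tumors. Mcm3 had 53.01, 70.6, 64.6 and 75.1 CPM in 6 Gy + INDO tumors, against 89.6, 97.7, 107, 90.2 and 120.4 CPM in controls (log2 fold change -0.58 ± 0.17, adjusted p = 0.0234). In all, 12 of the 37 genes lay without overlap below the controls and none above, against 10.1% and 6.6% of all genes. The INDO tumors had 2 genes below and none above (4.05% and 2.54% of all genes), and the 6 Gy tumors 2 above and none below (6.34% and 5.64%).

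For the other genes followed on every day the pattern on day 3 was similar in size. Pcna had 95.3, 99.1, 123 and 117 CPM in 6 Gy + INDO tumors, 133, 185, 182, 173 and 257 in 6 Gy tumors and 148, 123, 69.8, 115 and 126 in INDO tumors, against 136, 131, 174, 132 and 183 in controls. The 6 Gy + INDO tumors were below all controls for the clamp, but the difference did not pass the test (log2 fold change -0.44 ± 0.20, adjusted p = 0.117). Mcm2 had 51.2, 68.7, 66.1 and 66.9 CPM in 6 Gy + INDO tumors, 55.5, 75.8, 84.00, 84.3 and 103 in 6 Gy tumors and 72.3, 88.7, 61.5, 82.2 and 76.9 in INDO tumors, against 85.5, 85.9, 84.96, 79.8 and 101 in controls. The helicase subunit was called in 6 Gy + INDO tumors (log2 fold change -0.43 ± 0.15, adjusted p = 0.046), and the call was lost in 11 of 19 fits without 1 tumor. Rrm2 had 55.2, 54.2, 92.1 and 57.5 CPM in 6 Gy + INDO tumors, 99.6, 109.5, 113, 112 and 161 in 6 Gy tumors and 67.8, 91.1, 37.4, 89.1 and 59.5 in INDO tumors, against 101, 101, 101, 71.6 and 112 in controls. Rrm2 was not called under any treatment. In INDO tumors, none of the 37 genes was called by edgeR, against 3.95% lower and 2.38% higher of all genes. DESeq2 called none either, and 5 of the 37 were lower at an unadjusted p under 0.05. Rrm2 was the gene with the smallest p in INDO tumors (log2 fold change -0.49 ± 0.21, adjusted p = 0.152), and the INDO tumor of replicate 3 was the lowest of its group for Rrm2, Pcna and Mcm2. Of the 6 Gy comparison none was called by edgeR, against 3.62% higher and 4.1% lower of all genes. DESeq2 called 2 higher and 7 were higher at an unadjusted p under 0.05. The DESeq2 and unadjusted counts of this day have no share over all genes beside them. Orc6 had 32.7, 46.5, 44.3, 43.3 and 64.1 CPM in 6 Gy tumors, against 31.8, 30.3, 32.1, 28.7 and 34.8 CPM in controls (log2 fold change 0.55 ± 0.17, adjusted p = 0.0538). Orc6, an origin recognition subunit, was above the highest control in 4 of 5 6 Gy tumors.

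Of the 4 6 Gy + INDO tumors of day 3 only 1 had no high receptor gene counts. In a fit without the others it was assumed to vary like the other groups, and with 1 tumor hardly any gene could pass (0.00404% of all genes lower, none of the 37). The log2 fold changes of the 6 called genes were then -0.82 for Ccne1, -0.62 for Mcm3, -0.50 for Fen1, -0.38 for Mcm2, -0.30 for Rfc2 and -0.18 for Cdt1, and the median over the 37 was -0.17. With scaling to 14 housekeeping genes, which moved the median log2 fold change over all genes in 6 Gy + INDO tumors to 0.26, 2 of the 37 were lower. Leaving out single tumors gave between 1 and 9 called genes, the fewest without the 6 Gy + INDO tumor of replicate 1. Fibroblast markers were lower in the same comparison for 7 of 7 genes, with summed levels of 2437 to 3870 CPM in 6 Gy + INDO tumors and 6818 to 11880 CPM in controls, as were 5 of 5 endothelial, 4 of 4 erythroid, 2 of 6 skin and fat and 1 of 10 leukocyte markers. Erythroid sums were 6.37 to 24.1 CPM in 6 Gy + INDO tumors and 49.7 to 219 CPM in controls. Where no replication gene was called on day 3, markers were lower as well. In INDO tumors these were 7 of 7 fibroblast and 4 of 5 endothelial markers, and in 6 Gy tumors 5 of 7 and 5 of 5. The part of the markers in the result was not tested. In bulk tumors, fewer cycling cells and less of the replication gene RNAs per cell cannot be told apart.

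Day 7 held the most calls. In 6 Gy + INDO tumors 19 of 37 replication genes were lower and none was higher, a share of 51.4%, where 21.2% of all genes were lower and 24.8% higher. The median log2 fold change over the 37 was -0.37, against 0.03 over all genes, and the 37 values ran between -0.65 and 0.23. In INDO tumors 8 were lower and none higher (21.6%), where 11.7% of all genes were lower and 12.7% higher. In 6 Gy tumors none was called, where 10.3% of all genes were lower and 5.69% higher, DESeq2 called 1, and 1 was higher at an unadjusted p under 0.05. Leaving out single tumors gave between 11 and 26 lower genes for 6 Gy + INDO, the fewest without its own replicate 3, and between 1 and 17 for INDO, the fewest without replicate 4 of the controls and the most without replicate 2 of 6 Gy + INDO. No replication gene changed 2-fold in any comparison of any day.

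Among the 6 genes of the MCM2-7 helicase, 5 were lower in 6 Gy + INDO tumors, with log2 fold changes of -0.40 (Mcm4) to -0.59 (Mcm5). Mcm5 had 93.8, 103, 79.9, 102 and 89.3 CPM in 6 Gy + INDO tumors, 178, 149, 110.2, 134 and 122 in 6 Gy tumors and 116, 92.6, 97.7, 109 and 124 in INDO tumors, against 112, 151, 133, 181 and 171 in controls. All 6 Gy + INDO tumors were below all controls (log2 fold change -0.59 ± 0.13, adjusted p = 0.00172), and the INDO tumors overlapped the lowest control (log2 fold change -0.40 ± 0.13, adjusted p = 0.0307). Mcm3 had 55.8, 76.98, 59.4, 79.1 and 52.8 CPM in 6 Gy + INDO tumors, 111, 96.4, 87.4, 103 and 82.9 in 6 Gy tumors and 89.5, 70.2, 72.5, 72.2 and 86.8 in INDO tumors, against 75.3, 112, 91.7, 115 and 117 in controls. The 6 Gy + INDO tumors of replicates 2 and 4 were just above the lowest control, and the other 3 were below it (log2 fold change -0.57 ± 0.13, adjusted p = 0.00197). Mcm6 had 96.3, 149, 111, 136 and 93.96 CPM in 6 Gy + INDO tumors, 203, 180.5, 165, 167 and 148 in 6 Gy tumors and 152, 112, 132, 111 and 149 in INDO tumors, against 131, 203, 184, 199 and 213 in controls. The lowest control of Mcm6 lay within the 6 Gy + INDO range (log2 fold change -0.58 ± 0.14, adjusted p = 0.00289), and the INDO tumors were also lower (log2 fold change -0.43 ± 0.14, adjusted p = 0.0287). Mcm2 had 64.9, 77.2, 58.2, 73.3 and 65.6 CPM in 6 Gy + INDO tumors, 85.01, 82.97, 74.5, 81.2 and 70.3 in 6 Gy tumors and 81.8, 67.3, 70.4, 73.5 and 90.2 in INDO tumors, against 71.5, 92.6, 80.7, 83.3 and 91.01 in controls. Mcm2 was the exception among the 6 (log2 fold change -0.22 ± 0.09, adjusted p = 0.0528).

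Of the 4 licensing genes, Orc6, Cdc6 and Cdt1 were lower in 6 Gy + INDO tumors, at -0.50, -0.41 and -0.53 on the log2 scale, and Orc1 was not called (log2 fold change -0.35 ± 0.17, adjusted p = 0.0902). Of the 5 genes that activate the helicase only Gins2, a GINS subunit, was lower (log2 fold change -0.41 ± 0.13, adjusted p = 0.0186), while Mcm10 stood at 0.03 and Cdc45 at -0.22. The clamp Pcna and the loader genes Rfc2 and Rfc4 were lower, and Rfc3 and Rfc5 were not called. Pcna had 95.9, 135, 97.02, 104 and 79.9 CPM in 6 Gy + INDO tumors, 240.03, 189.8, 141, 146 and 161 in 6 Gy tumors and 107, 95.8, 119, 114 and 125 in INDO tumors, against 116, 163, 140.1, 248 and 165 in controls. The controls varied more than 2-fold for Pcna, and 1 control lay among the 6 Gy + INDO values (log2 fold change -0.61 ± 0.17, adjusted p = 0.00822). Rfc4 had 9.92, 13.2, 8.33, 12.1 and 8.18 CPM in 6 Gy + INDO tumors, 31.7, 21.9, 13.7, 15.6 and 18.3 in 6 Gy tumors and 10.4, 7.85, 10.8, 10.7 and 11.3 in INDO tumors, against 11.9, 14.6, 14.2, 27.4 and 16.7 in controls. Rfc4 was lower with INDO as well (log2 fold change -0.67 ± 0.22, adjusted p = 0.036), where all 5 tumors were below the lowest control, and the 6 Gy + INDO tumors overlapped it (log2 fold change -0.63 ± 0.22, adjusted p = 0.0269).

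Of the 6 polymerase and primase genes 1, Prim1, the catalytic primase subunit, was lower in 6 Gy + INDO tumors (log2 fold change -0.45 ± 0.17, adjusted p = 0.0362), and the median log2 fold change of the 6 was 0.00. Pole, the catalytic subunit of polymerase epsilon, stood at 0.23 (adjusted p = 0.0803). Pola1 had 85.4, 122, 109, 103 and 88.3 CPM in 6 Gy + INDO tumors, 145, 151, 122, 134 and 119 in 6 Gy tumors and 111, 99.5, 107, 101 and 116 in INDO tumors, against 102, 106, 103, 132 and 115 in controls. Pola1, the catalytic subunit of polymerase alpha, overlapped the controls in every group, and was the gene with the smallest p in 6 Gy tumors (log2 fold change 0.26 ± 0.10, adjusted p = 0.0716). A contrast between role groups was not tested.

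On the lagging strand, Fen1 and Rpa2 were lower in 6 Gy + INDO tumors and Lig1, DNA ligase 1, was not called (log2 fold change -0.10 ± 0.12, adjusted p = 0.504). Fen1 had 25.1, 28.3, 19.7, 27.5 and 21.5 CPM in 6 Gy + INDO tumors, 43.7, 38.8, 28.6, 33.4 and 32.02 in 6 Gy tumors and 30.3, 28.8, 28.9, 30.1 and 32.4 in INDO tumors, against 31.00, 40.96, 35.00, 44.8 and 45.04 in controls. Fen1 had the smallest p of the 37 (log2 fold change -0.60 ± 0.12, adjusted p = 0.000768), and all 6 Gy + INDO tumors were below all controls. Rpa2 had 14.5, 15.7, 11.4, 15.04 and 9.93 CPM in 6 Gy + INDO tumors, 29.97, 23.7, 18.6, 18.7 and 18.7 in 6 Gy tumors and 16.8, 14.4, 16.1, 17.4 and 16.3 in INDO tumors, against 17.1, 23.96, 19.8, 26.6 and 23.6 in controls. Rpa2, a subunit of the single-strand DNA binding protein RPA, did not overlap between these groups either (log2 fold change -0.65 ± 0.14, adjusted p = 0.00173). Neither gene was called in INDO tumors (adjusted p = 0.0507 and 0.0527). The calls of Fen1, Rpa2, Mcm5 and Mcm3 in 6 Gy + INDO tumors held in each of the 20 fits that left out 1 tumor. Without all tumors with receptor gene counts, those of Rpa2 and Mcm5 were lost.

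Among the genes of nucleotide supply, the ribonucleotide reductase genes Rrm1 and Rrm2 were lower in 6 Gy + INDO tumors, and thymidylate synthase Tyms and thymidine kinase Tk1 were not called. Rrm1 had 74.3, 111, 89.5, 89.3 and 80.96 CPM in 6 Gy + INDO tumors, 143, 122, 106, 117 and 109.7 in 6 Gy tumors and 89.6, 82.4, 92.5, 86.9 and 98.7 in INDO tumors, against 103, 130.5, 109.6, 137 and 135 in controls. Rrm1 had the smallest p in INDO tumors, which were all below the lowest control (log2 fold change -0.39 ± 0.10, adjusted p = 0.0134), and was lower in 6 Gy + INDO tumors (log2 fold change -0.38 ± 0.10, adjusted p = 0.00648). Rrm2 had 89.5, 71.02, 55.8, 61.9 and 70.2 CPM in 6 Gy + INDO tumors, 137, 116, 73.1, 93.7 and 127 in 6 Gy tumors and 60.4, 74.6, 80.9, 75.5 and 69.6 in INDO tumors, against 69.1, 92.3, 93.03, 128 and 121 in controls. Rrm2 overlapped the controls in 6 Gy + INDO tumors (log2 fold change -0.44 ± 0.17, adjusted p = 0.0411). Of the 4 G1/S genes, Ccne1 and Uhrf1, which reads newly replicated DNA methylation, were lower in 6 Gy + INDO tumors. Ccne1 had 5.47, 6.96, 6.93, 5.18 and 5.96 CPM in 6 Gy + INDO tumors, 9.49, 8.21, 5.77, 6.398 and 6.68 in 6 Gy tumors and 7.48, 5.73, 4.94, 5.84 and 7.39 in INDO tumors, against 8.53, 9.04, 6.98, 11.4 and 9.16 in controls. The 6 Gy + INDO tumors were all below the lowest control (log2 fold change -0.48 ± 0.16, adjusted p = 0.0207), and the INDO tumors were lower with overlap (log2 fold change -0.46 ± 0.16, adjusted p = 0.0423). E2f1, a transcription factor of the S phase program, stood at 0.05.

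**Figure D3:**
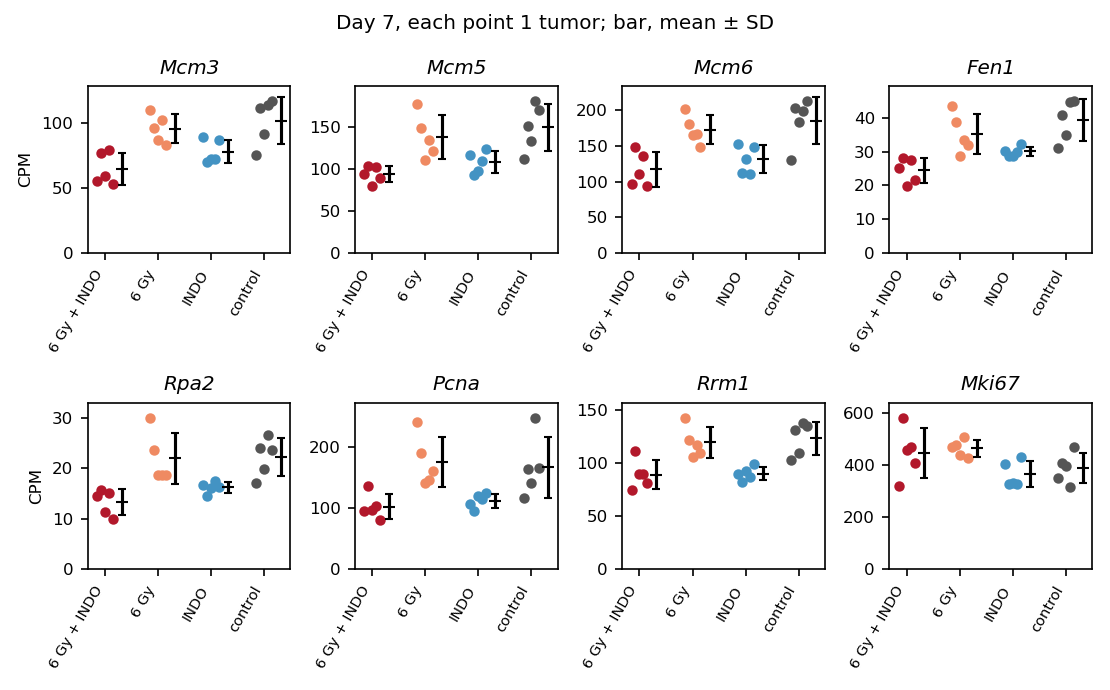
CPM (linear axis from 0) of replication genes in each tumor of day 7, with 6 Gy + INDO, 6 Gy, INDO and control from left to right; points are tumors and bars are mean ± SD. For Fen1 the 6 Gy + INDO tumors ran between 19.7 and 28.3 CPM, below the controls at 31.0 to 45.0 CPM.

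Without overlap, 5 of 37 genes lay below the controls in 6 Gy + INDO tumors and 5 in INDO tumors, against 12.2% and 10.7% of all genes, shares close to the background. None lay above (8.17% and 5.79% of all genes), and none either way in 6 Gy tumors (8.43% below and 3.97% above). Housekeeping scaling moved the median log2 fold change over all genes to 0.26 in 6 Gy + INDO tumors and split the calls into 7 lower and 5 higher: Fen1, Mcm3, Mcm5, Mcm6, Pcna, Rfc2 and Rpa2 were lower, with -0.43 for Rpa2 and -0.38 for Fen1, and Pole (0.46), Prim2 (0.38), Pola2 (0.29), E2f1 (0.28) and Mcm10 (0.26) were higher. The same scaling left no gene lower in INDO tumors, where Lig1 (0.35) and Pola2 (0.36) were higher, with the median over all genes at 0.19. Shares of all genes called under this scaling are not given. Without the tumors with receptor gene counts, 5 genes were lower in 6 Gy + INDO tumors, Ccne1 (-0.70), Fen1 (-0.52), Mcm3 (-0.53), Mcm6 (-0.61) and Rrm1 (-0.52), the share of all genes being 8.57% and the median over the 37 -0.35. Among the calls lost were those of Mcm5, Rpa2, Pcna, Rrm2, Rfc4, Gins2 and Prim1.

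Markers of other cells moved with the day 7 comparison. In 6 Gy + INDO tumors 7 of 7 fibroblast markers were lower, with summed levels of 901 to 3086 CPM in 6 Gy + INDO tumors and 7988 to 15099 CPM in controls, as were 5 of 5 endothelial, 4 of 4 erythroid, 6 of 11 leukocyte, 2 of 5 muscle and 2 of 6 skin and fat markers. Of the 8 epithelial markers 3 were lower, and their sums overlapped, at 1785 to 3571 CPM in 6 Gy + INDO tumors and 2043 to 4122 CPM in controls. Where no replication gene was called, in 6 Gy tumors, 6 of 7 fibroblast markers and 5 of 5 endothelial markers were lower as well, with fibroblast sums of 1461 to 3054 CPM. In INDO tumors 6 of 7 fibroblast and 4 of 5 endothelial markers were lower. The part of these markers in the result was not tested.

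On day 15 no replication gene was called. For 6 Gy + INDO, 0.552% of all genes were lower and 0.778% higher, DESeq2 called 4 of the 37, and 12 were lower at an unadjusted p under 0.05. For 6 Gy and INDO 0% of all genes were called in either direction, DESeq2 called none of the 37, and 10 and 1 of them were lower at an unadjusted p under 0.05. The unadjusted counts of this day have no share over all genes beside them and are not calls. All 37 log2 fold changes of the 6 Gy tumors were negative, with a median of -0.34, and the median for 6 Gy + INDO was -0.35. Prim1 had 16.7, 22.6, 23.6, 21.7 and 21.6 CPM in 6 Gy + INDO tumors, 32.4, 23.01, 15.5, 23.9 and 24.3 in 6 Gy tumors and 23.02, 30.3, 30.9, 29.6 and 42.2 in INDO tumors, against 34.4, 30.1 and 43.4 in controls. Prim1 had the smallest p (log2 fold change -0.78 ± 0.19, adjusted p = 0.0535), and all 5 6 Gy + INDO tumors were below the 3 controls. In 6 Gy + INDO tumors 17 of the 37 genes lay without overlap below the controls and none above, against 5.68% and 6.98% of all genes. In 6 Gy tumors it was 1 below and none above (1.52% and 2.96%), and in INDO tumors none (2.21% and 2.29%). Prim2 had 23.6, 24.7, 16.4, 26.1 and 27.7 CPM in 6 Gy tumors, against 30.1, 32.1 and 31.8 CPM in controls (log2 fold change -0.43 ± 0.13, adjusted p = 0.572). Orc6 had 24.3, 28.3, 27.2, 28.9 and 32.4 CPM in INDO tumors, against 32.6, 30.9 and 47.3 CPM in controls (log2 fold change -0.39 ± 0.16, adjusted p = 0.462). The INDO values of Orc6 overlapped those of the controls, and the 6 Gy values of Prim2, the regulatory primase subunit, did not.

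The levels of the genes followed on every day were as follows on day 15. Pcna had 71.9, 97.98, 103, 102 and 99.1 CPM in 6 Gy + INDO tumors, 159.97, 111, 93.5, 115 and 118 in 6 Gy tumors and 95.7, 108, 106, 116 and 147 in INDO tumors, against 119, 125 and 181 in controls. Pcna in 6 Gy + INDO tumors was below all 3 controls without passing the test (log2 fold change -0.59 ± 0.17, adjusted p = 0.0758). Mcm2 had 66.3, 68.7, 78.97, 89.1 and 77.2 CPM in 6 Gy + INDO tumors, 94.8, 69.6, 47.6, 64.8 and 77.9 in 6 Gy tumors and 75.1, 89.2, 74.1, 86.97 and 116 in INDO tumors, against 84.97, 89.2 and 83.2 in controls. Rrm2 had 62.2, 60.3, 58.1, 80.7 and 69.8 CPM in 6 Gy + INDO tumors, 103, 42.8, 40.1, 54.2 and 72.2 in 6 Gy tumors and 68.6, 54.1, 67.4, 62.6 and 99.1 in INDO tumors, against 67.2, 81.8 and 111 in controls. Ccne1 had 5.75, 5.38, 6.05, 6.12 and 5.97 CPM in 6 Gy + INDO tumors, 8.601, 5.65, 3.03, 5.09 and 6.46 in 6 Gy tumors and 6.38, 7.03, 5.62, 5.96 and 8.46 in INDO tumors, against 8.17, 6.497 and 8.32 in controls. For Mcm2, Rrm2 and Ccne1 the 6 Gy tumor of replicate 3 was the lowest of its group, the 6 Gy tumor of replicate 1 the highest, and no comparison passed the test.

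On day 23 no replication gene was called either, by edgeR or by DESeq2, with 0% of all genes called in either direction for 6 Gy and for INDO, and for 6 Gy + INDO 0.00473% lower and 0% higher. At an unadjusted p under 0.05 there were 1 higher and 2 lower for 6 Gy + INDO, none for 6 Gy and 2 higher for INDO. Pole had 59.1, 63.7, 78.3, 66.5 and 64.9 CPM in 6 Gy + INDO tumors, 55.8, 96.01, 59.7, 60.9 and 43.03 in 6 Gy tumors and 39.3, 40.6, 87.7, 67.3 and 85.6 in INDO tumors, against 22.2, 42.1 and 58.2 in controls. The first control was far below the other tumors for Pole (log2 fold change 0.63 ± 0.31, adjusted p = 0.37 in 6 Gy tumors). Rfc4 had 10.9, 8.94, 10.2, 9.88 and 9.89 CPM in 6 Gy + INDO tumors, 11.4, 11.9, 11.3, 10.6 and 10.7 in 6 Gy tumors and 15.4, 8.78, 14.9, 10.5 and 11.3 in INDO tumors, against 11.8, 13.3 and 16.6 in controls. Rfc4 in 6 Gy + INDO tumors was below all 3 controls (log2 fold change -0.45 ± 0.17, adjusted p = 0.121). Prim2 had 24.8, 22.2, 37.8, 24.7 and 34.4 CPM in INDO tumors, against 17.9, 20.3 and 26.7 CPM in controls (log2 fold change 0.43 ± 0.19, adjusted p = 0.361). Prim2 overlapped between these groups. Without overlap, 1 gene lay above and 1 below the controls for 6 Gy + INDO (8.9% and 12.6% of all genes), none for 6 Gy (3.37% and 6.83%) and none for INDO (2.81% and 4.63%).

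The same control of day 23 was low for the other genes too. Pcna had 109, 86.9, 102, 94.3 and 90.01 CPM in 6 Gy + INDO tumors, 107, 108, 97.1, 87.8 and 99.7 in 6 Gy tumors and 119, 79.7, 128, 91.6 and 111 in INDO tumors, against 85.2, 123 and 147 in controls. Mcm2 had 87.7, 70.1, 88.5, 67.9 and 74.97 CPM in 6 Gy + INDO tumors, 66.95, 77.4, 81.4, 73.3 and 59.4 in 6 Gy tumors and 60.8, 61.3, 99.7, 75.4 and 96.00 in INDO tumors, against 44.7, 61.9 and 75.3 in controls. For Pcna every treated tumor but 1 INDO tumor lay within the range of the controls, and the first control was the lowest of the day for Mcm2. Rrm2 had 73.4, 44.9, 59.1, 64.3 and 42.7 CPM in 6 Gy + INDO tumors, 57.3, 66.9, 39.8, 56.2 and 39.00 in 6 Gy tumors and 41.2, 25.5, 69.6, 50.1 and 56.6 in INDO tumors, against 19.8, 51.7 and 78.7 in controls. Ccne1 had 6.95, 4.65, 7.79, 5.81 and 5.97 CPM in 6 Gy + INDO tumors, 5.07, 4.95, 5.68, 6.51 and 4.02 in 6 Gy tumors and 4.49, 4.41, 9.01, 6.32 and 6.84 in INDO tumors, against 2.27, 4.58 and 6.74 in controls. In that control Mki67 was at 124 CPM, against 296 and 383 CPM in the other controls. With standard errors of 0.15 to 0.37 on the log2 scale over the 37 genes, differences of the size seen on day 7 were not detectable for the less precise genes on day 23.

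Over all 5 days weighted alike, 6 Gy + INDO had 24 of 37 replication genes lower than controls and none higher (64.9%), where 23.2% of all genes were lower and 29.6% higher. The calls covered 6 of 6 helicase genes, 5 of 5 of clamp and loader, 3 of 4 of licensing, 3 of 4 of nucleotide supply, 2 of 3 of the lagging strand, 2 of 6 polymerase and primase genes, 2 of 5 of helicase activation and 1 of 4 of G1/S control. Mcm6 (log2 fold change -0.46 ± 0.08, adjusted p = 2.82e-06) and Pcna (log2 fold change -0.47 ± 0.09, adjusted p = 7.77e-06) had the smallest p, followed by Rfc2 (log2 fold change -0.33 ± 0.06, adjusted p = 1.82e-05) and Rfc4 (log2 fold change -0.47 ± 0.10, adjusted p = 4.98e-05). Ccne1 (log2 fold change -0.45 ± 0.10, adjusted p = 8.03e-05), Rrm2 (log2 fold change -0.37 ± 0.11, adjusted p = 0.00524) and Mcm2 (log2 fold change -0.16 ± 0.07, adjusted p = 0.0457) were lower as well. The Mcm2 call was lost in 3 of the 5 fits that left out 1 replicate number and without day 1, 3 or 7, and the Rrm2 call in 2 of the 5 and without day 3 or 7. Without the tumors with receptor gene counts Mcm2 stood at -0.13 (adjusted p = 0.23) and Rrm2 at -0.28 (adjusted p = 0.138), and with housekeeping scaling Mcm2 at 0.03 (adjusted p = 0.808) and Rrm2 at -0.18 (adjusted p = 0.17). The median over the 37 was -0.22, against 0.19 over all genes. Mki67 itself was narrowly past the threshold in 6 Gy + INDO tumors (log2 fold change 0.21 ± 0.09, adjusted p = 0.0472); the call was lost in 4 of the 5 fits that left out 1 replicate number, without day 1, 7 or 23, and without the tumors with receptor gene counts (0.09, adjusted p = 0.559). Cdkn1a, which encodes the cyclin-dependent kinase inhibitor p21, was higher (log2 fold change 0.25 ± 0.11, adjusted p = 0.0435).

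In INDO tumors 7 of 37 genes were lower than in controls, Mcm6, Orc6, Pcna, Rfc2, Rfc4, Rpa2 and Rrm2, and 1 was higher, Pole (log2 fold change 0.21 ± 0.09, adjusted p = 0.0466). The 18.9% lower is close to the 17.4% of all genes, with 16.8% of all genes higher. The smallest p were those of Pcna (log2 fold change -0.34 ± 0.09, adjusted p = 0.0013), Rfc4 (log2 fold change -0.38 ± 0.10, adjusted p = 0.00138), Orc6 (log2 fold change -0.31 ± 0.08, adjusted p = 0.00247) and Rrm2 (log2 fold change -0.38 ± 0.11, adjusted p = 0.00681). Leaving out the tumors of replicate 3 ended the calls of these 4 genes. For 6 Gy alone none of the 37 was called by edgeR or DESeq2, where 10.6% of all genes were lower and 9.19% higher, with 1 higher and 3 lower at an unadjusted p under 0.05, and the smallest p was that of Ccne1 (log2 fold change -0.24 ± 0.09, adjusted p = 0.0671).

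Compared directly, 6 Gy + INDO tumors had 22 of 37 genes lower than 6 Gy tumors and none higher (59.5%), against 19.8% lower and 25.9% higher of all genes. Orc6 (log2 fold change -0.49 ± 0.08, adjusted p = 7.30e-07), Rfc4 (log2 fold change -0.57 ± 0.09, adjusted p = 9.29e-07), Pcna (log2 fold change -0.47 ± 0.08, adjusted p = 2.96e-06) and Rfc2 (log2 fold change -0.32 ± 0.06, adjusted p = 1.04e-05) had the smallest p. Against INDO tumors 3 of 37 were lower and none higher, where 3.54% of all genes were lower and 7.21% higher: Mcm6 (log2 fold change -0.26 ± 0.08, adjusted p = 0.0226), Ccne1 (log2 fold change -0.28 ± 0.09, adjusted p = 0.0323) and Rfc2 (log2 fold change -0.17 ± 0.06, adjusted p = 0.0496). These 3 calls were each lost in at least 2 of the 5 fits that left out 1 replicate number, and all of them without the tumors with receptor gene counts (adjusted p = 0.17, 0.23 and 0.696).

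The split of the calls depended on the scaling. With housekeeping scaling 6 Gy + INDO had 11 genes lower and 6 higher than controls, with a median of -0.03 over the 37 and 0.37 over all genes, and 8 lower and 4 higher than 6 Gy tumors. With DESeq2's size factors the split was 16 lower and 2 higher against controls. For INDO the split was 5 lower and 2 higher under either scaling. Without the tumors with receptor gene counts 15 genes were lower in 6 Gy + INDO tumors and none higher, against 20.7% lower of all genes and a median of -0.24 over the 37, and 9 were lower and 1 higher than in 6 Gy tumors. Without day 7, 11 genes were lower than controls and 11 lower than in 6 Gy tumors. Apart from the 20.7%, shares of all genes called in these fits are not given.

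**Figure D4:**
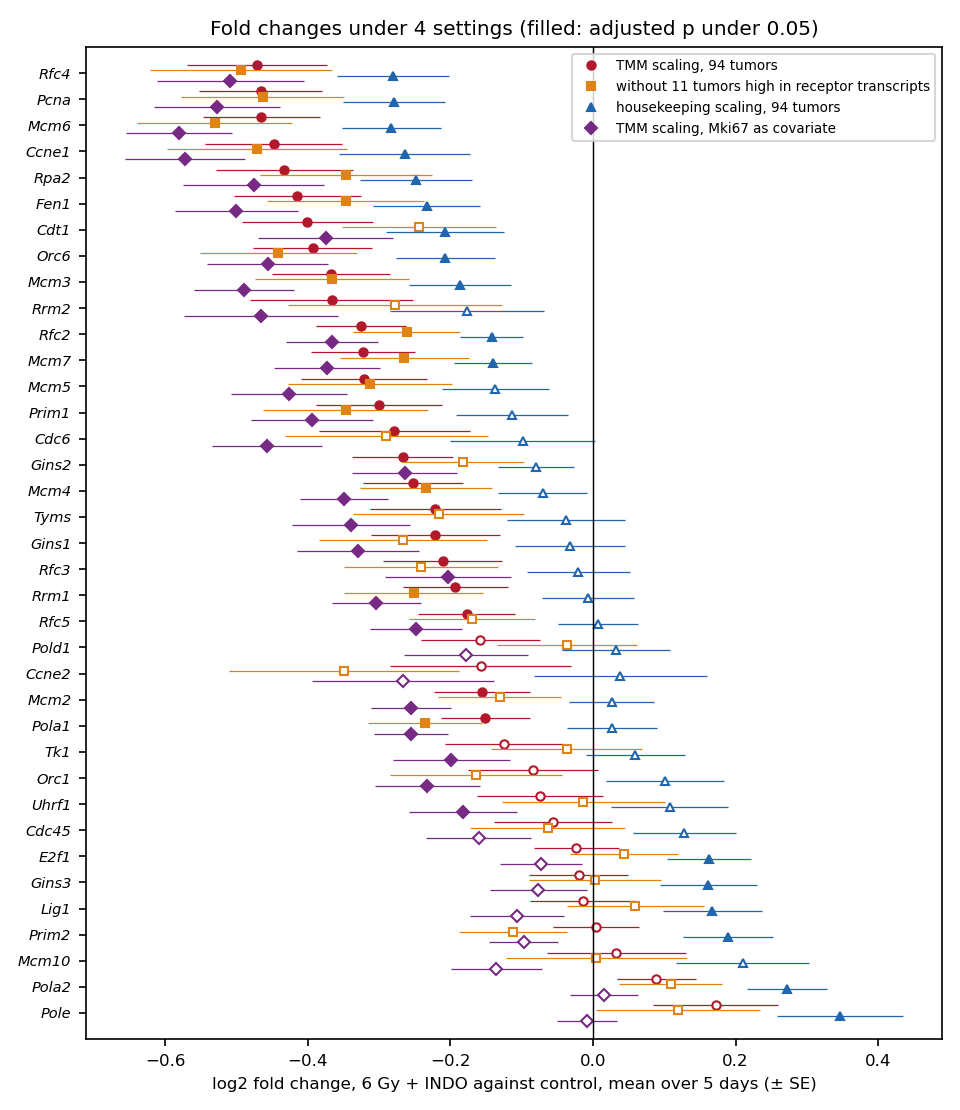
Log2 fold change of 6 Gy + INDO against control over 5 days (horizontal axis, ± SE) for replication genes in rows under 4 settings, with filled symbols at an adjusted p under 0.05. Pcna was at -0.47 in the main setting, at -0.28 with housekeeping scaling and at -0.46 without the tumors with receptor gene counts.

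A test of whether a treatment's effect differed between days called few replication genes. For 6 Gy it called Rfc3 (adjusted p = 0.0214) and Pola1 (adjusted p = 0.0235), 2 of 37 (5.41%) against 3.82% of all genes. The log2 fold changes of Rfc3 in 6 Gy tumors were 0.32, 0.54, 0.19, -0.62 and -0.21 on days 1, 3, 7, 15 and 23, and those of Pola1 were 0.27, 0.32, 0.26, -0.50 and -0.11. Both were thus positive through day 7 and negative on day 15. For 6 Gy + INDO it called Ccne1 (adjusted p = 0.00377) and Mcm2 (adjusted p = 0.0243), 2 of 37 against 33.6% of all genes, far under the background. Ccne1 ran -0.94, -0.76, -0.48, -0.41 and 0.48 over the 5 days and Mcm2 -0.18, -0.43, -0.22, -0.20 and 0.39. For INDO none was called by edgeR, against 2.66% of all genes, with 3 at an unadjusted p under 0.05.

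Among controls alone 12 of 37 genes differed between days, Mcm2, Cdc6, Mcm10, Cdc45, Gins3, Rfc5, Pola2, Pole, Prim2, Rrm2, Ccne1 and E2f1, a share of 32.4% against 30.2% of all genes. None of them was called when the tumors of replicate 1, which include the low control of day 23, were left out, and 1 was with Mki67 as a covariate.

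Each gene was then set against Mki67 within groups, over the 94 tumors with group means removed from log2(CPM + 0.5). The median Pearson r over the 37 genes was 0.48, against 0.07 over 29372 genes, 35 of 37 were above 0, and 26 of 37 were among the top 5% of all genes. In the edgeR fit with Mki67 as a slope, 27 of 37 rose with Mki67 and none fell (73%), against 8.55% and 9.23% of all genes. These points share libraries, and the r of single genes are descriptions of these tumors. Values within the 4 groups are set side by side here, and a difference between groups was not tested. The median r was 0.14 within 6 Gy + INDO tumors, where 11 of 37 were below 0, 0.61 within 6 Gy tumors and 0.63 within INDO tumors, with 1 below 0 in each, and 0.45 within controls, with 8 below 0. Without the 2 tumors of each group farthest from its median of Mki67 the medians were 0.08, 0.52, 0.56 and -0.24 in the same order. Of the 37 genes, 15, 2, 0 and 27 were then below 0. The means removed in these values were still those of all tumors. With that limit, the positive median within controls was not seen without 2 tumors.

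Pole stood closest to Mki67, with r = 0.90 and Spearman's rho = 0.86, rank 3 of 29372 genes. Mcm10, which helps to open the helicase, followed with r = 0.79 and rho = 0.65, and Cdc6 with r = 0.75 and rho = 0.60. The permutation p of all 6 values was 1e-05, the smallest that 100000 permutations can give. The tumors farthest from the median of Mki67 were replicate 1 of the controls and replicate 5 of 6 Gy on day 23. Without them, and with group means taken anew, r was 0.88 for Pole, 0.71 for Mcm10 and 0.65 for Cdc6.

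At the other end, Cdt1 had r = -0.11 (permutation p = 0.315) and rho = -0.11 (p = 0.336 by permutation), Rfc3 r = -0.01 (permutation p = 0.955) and Gins2 r = 0.01 (permutation p = 0.961). Cdt1, the licensing factor that is degraded as S phase begins, reached r = -0.62 within the 24 6 Gy + INDO tumors (permutation p = 0.00927), and -0.50 without the 2 of them farthest from the median of Mki67. There E2f1 (r = -0.60, permutation p = 0.00922) and Pold1 (r = -0.54, permutation p = 0.023), named after their values were seen, were also negative. These permutation p are not adjusted for the 37 genes; the slope on Mki67 in edgeR, adjusted over all genes, gave p = 0.507 for Cdt1, 0.892 for Rfc3 and 0.956 for Gins2, against 1.23e-23 for Pole, 4.99e-14 for Mcm10 and 2.68e-11 for Cdc6. Within controls r was 0.94 for Pole, 0.75 for Mcm10 and 0.74 for Cdc6, and without the 2 farthest control tumors 0.84, 0.14 and 0.14. The control values of Mcm10 and Cdc6 were thus much lower without those tumors. In the values of this paragraph without 2 tumors, the means removed were still those of all tumors.

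Genes with longer exons were nearer to Mki67. Over the 37 genes, which are not independent replicates, Spearman's rho between exon length and r with Mki67 was 0.50. Pole has 11160 bases of exon and Mki67 10061, against a median of 3993 and a lowest of 1516 over the 37. The part of length in the relation was not tested.

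**Figure D5:**
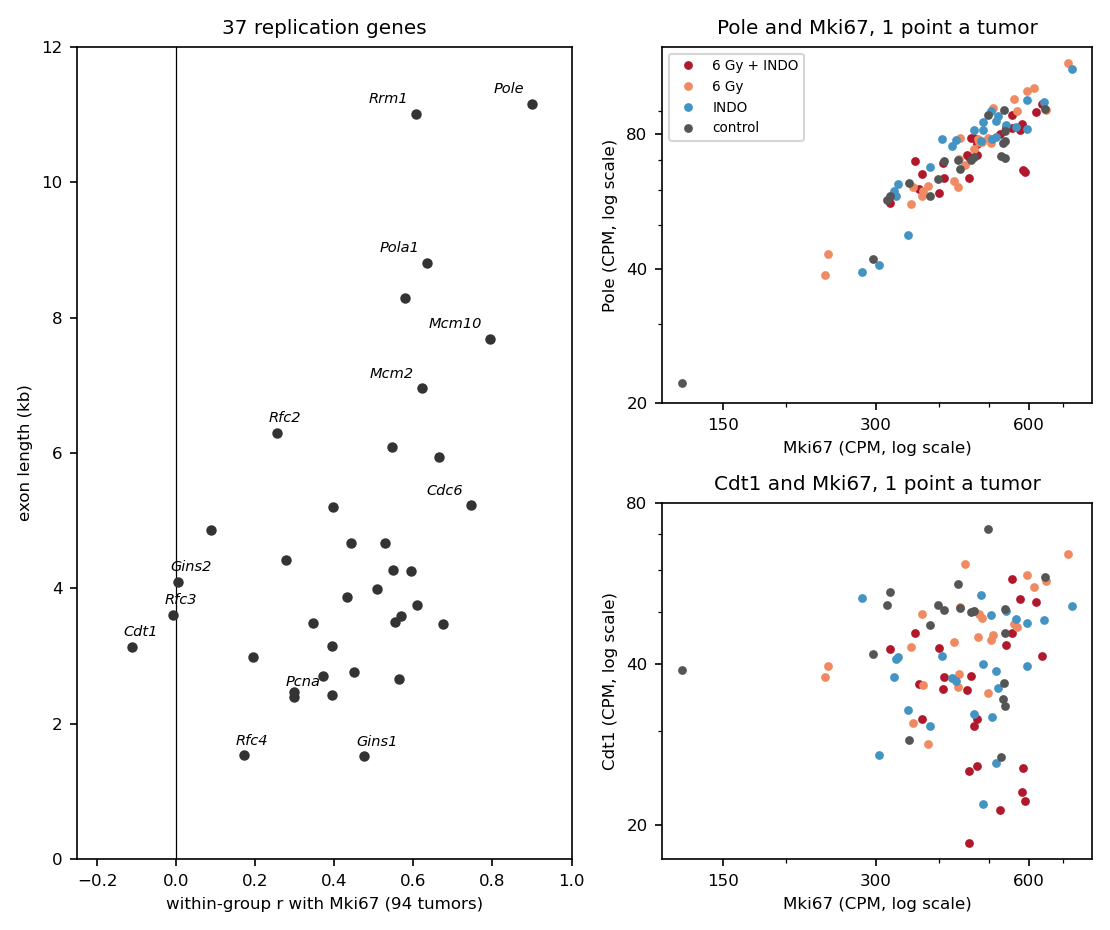
Exon length (kb) against within-group r with Mki67 for the 37 replication genes (left), and CPM of named genes against Mki67 CPM in each of the 94 tumors on log axes (right panels), coloured by treatment. Pole lay at the right end with r = 0.90 and Cdt1 at the left end with r = -0.11.

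With Mki67 as a covariate in the fit over days, 27 of the 37 genes were lower in 6 Gy + INDO tumors than in controls, among them all 24 of the fit without it, and the median was -0.30. INDO tumors then had 21 genes lower and 6 Gy tumors 5. Shares of all genes called in this fit are not given, so these counts are not set against a background. The level of the 37 genes relative to Mki67, as the mean log2 level of the genes less that of Mki67, was -3.69, -3.86, -3.71, -3.65 and -3.68 in 6 Gy + INDO tumors on days 1, 3, 7, 15 and 23. It was -3.49, -3.38, -3.38, -3.46 and -3.51 in 6 Gy tumors and -3.78, -3.71, -3.33, -3.57 and -3.45 in INDO tumors, against -3.45, -3.52, -3.14, -3.39 and -2.92 in controls. The means of 6 Gy + INDO and of INDO were below that of controls on every day and that of 6 Gy on all days but day 3, and 6 Gy + INDO was the lowest on all days but day 1. This order of means was not tested, and SDs within groups ran from 0.124 (INDO, day 3) to 0.580 (controls, day 15). Single 6 Gy + INDO tumors overlapped the controls on days 1, 3, 7 and 15. On day 23 they did not, at -4.11 to -3.35 against -3.16 to -2.48 in the 3 controls.

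Among themselves the 37 genes varied more closely than with Mki67. With group means removed, the median r over 666 pairs was 0.68, 664 pairs were above 0, and Mcm3 and Mcm5 had the highest r, 0.94. Pcna was near Orc6 (0.93), Prim1 (0.92) and Rfc4 (0.92), while Cdc6 was near Mcm10 (0.90). Cdt1 had a median r of 0.41 with the other genes, and its nearest was Pold1 (0.80), the catalytic subunit of polymerase delta. These values share libraries and depth, and are descriptions.

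A second list of 59 replication genes, such as other origin, helicase loading, checkpoint and histone chaperone genes, was read beside the 37. On day 3, 5 of the 59 were lower in 6 Gy + INDO tumors (8.47%), under the 9.43% of all genes. On day 7, 18 were lower in 6 Gy + INDO tumors (30.5%, against 21.2% of all genes) and 8 in INDO tumors (13.6%, close to the 11.7% of all genes). In 6 Gy tumors of day 7 none was lower (10.3% of all genes) and 1, Ticrr, was higher (log2 fold change 0.44 ± 0.14, adjusted p = 0.0409; 5.69% of all genes). Over the days, 31 were lower (52.5%) and 3 higher (5.08%) in 6 Gy + INDO tumors, against 23.2% and 29.6% of all genes. In INDO tumors 19 were lower (32.2%) and none higher, against 17.4% and 16.8%, and in 6 Gy tumors 3 were higher (5.08%) and none lower, against 9.19% and 10.6%. The MCM binding protein gene Mcmbp (log2 fold change -0.33 ± 0.04, adjusted p = 1.45e-09) and the replication gene Donson (log2 fold change -0.44 ± 0.06, adjusted p = 4.09e-08) had the smallest p in 6 Gy + INDO tumors. Higher in 6 Gy tumors were Dbf4, the activating subunit of the kinase that fires origins (log2 fold change 0.27 ± 0.07, adjusted p = 0.00186), and Topbp1, a checkpoint scaffold (log2 fold change 0.20 ± 0.06, adjusted p = 0.00612), and in INDO tumors Pole3 (log2 fold change -0.30 ± 0.06, adjusted p = 9.99e-05) and Ssrp1 (log2 fold change -0.18 ± 0.04, adjusted p = 0.000168) were lower.

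By day, Donson was lower in 6 Gy + INDO tumors on day 1 (log2 fold change -0.59 ± 0.12, adjusted p = 0.00138) and Mcmbp on day 3 (log2 fold change -0.49 ± 0.12, adjusted p = 0.00973). In 6 Gy tumors of day 3 Orc4 (log2 fold change 0.67 ± 0.11, adjusted p = 0.00154) and Rpa3 (log2 fold change 0.67 ± 0.17, adjusted p = 0.022) were higher, and on day 1 Dbf4 (log2 fold change 0.41 ± 0.13, adjusted p = 0.0399). On day 7 Pole4, a small subunit of polymerase epsilon, was lower in 6 Gy + INDO tumors (log2 fold change -0.72 ± 0.16, adjusted p = 0.00163), as was Rnaseh2a, a ribonuclease H2 subunit (log2 fold change -0.61 ± 0.14, adjusted p = 0.00241). Whether the calls of this list held without the tumors with receptor gene counts is not given. In the promoter windows, 8 of 49 matched genes of this list held an E2F octamer (16.3%).

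Cdkn1a had 57.9, 62.9, 56.1, 56.3 and 40.7 CPM in 6 Gy + INDO tumors, 48.9, 48.1, 53.5, 32.5 and 31.6 in 6 Gy tumors and 26.8, 20.9, 25.3, 33.1 and 27.03 in INDO tumors, against 44.96, 35.2, 37.6 and 36.5 in controls. On day 1 this inhibitor gene was higher in 6 Gy + INDO tumors (log2 fold change 0.51 ± 0.17, adjusted p = 0.0313) and lower in INDO tumors (log2 fold change -0.50 ± 0.16, adjusted p = 0.0487), with 1 6 Gy + INDO tumor inside the control range. Mki67 had 319.8, 582, 459, 467 and 407 CPM in 6 Gy + INDO tumors, 468, 478, 437, 506 and 428 in 6 Gy tumors and 405, 328, 331, 326 and 432 in INDO tumors, against 349, 408, 397, 315 and 467 in controls. Mki67 was not called on day 7 under any treatment and overlapped the controls in each (log2 fold change 0.29 ± 0.13, adjusted p = 0.0797 for 6 Gy + INDO).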

How the data were processed

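Total RNA of 94 tumors was sequenced by the authors with a stranded Illumina kit, and reads were trimmed with Cutadapt. The submitters' processing notes also name STAR, mm10 as the build, and version 11.0.24.0328 of Partek. The counting tool and annotation were not given in the sources used here. Expected counts per gene were deposited by the authors as 1 table, and were rounded to whole numbers. Groups and replicate numbers came from the sample labels. Analysis used R 4.3.3 with edgeR 4.0.16 (filterByExpr, TMM, quasi-likelihood F test, Benjamini-Hochberg over all genes), limma 3.58.1 and DESeq2 1.42.0. The 4 groups of a day entered 1 fit, and all 94 tumors entered 1 fit for means over days, differences between days and the slope on Mki67. CPM use TMM library sizes. Correlations used 100000 two-sided permutations within groups. The 37 genes, the lists and the tests were chosen with earlier results of these data known. Values per tumor are given for the called genes with the smallest p, at most 4 a comparison (or the gene with the smallest p), and for Pcna, Mcm2, Rrm2 and Ccne1 on every day; other genes are given by counts. For the Mki67 relation the 3 highest and 3 lowest r are named, and of the second list at most 2 genes a comparison. Gene positions came from the GENCODE M21 annotation of GRCm38, and promoters from RefSeq. Alternatives were DESeq2's size factors and test, scaling to 14 housekeeping genes, no filter, a replicate block, Mki67 as a covariate, all tumors in 1 fit, a 2-fold limit at an unadjusted p of 0.05, and leaving out tumors, days or the 11 tumors over 300 CPM on 1977 receptor genes. Library totals differed between treatments, and their part in the results was not tested. Replicate libraries were checked for duplicates, and none of 178 pairs agreed within sampling noise. The fits were tested on simulated data.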

Additional observations from a re-analysis of the deposited data

Results flagged for a closer look

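Of 66 tests for a tumor that stands apart (the gap to its nearest neighbour against the group's range), 3 found one. The tests took the mean level of the 37 genes, Mki67 or a called gene within a group. The same tumors entered several tests, so the tests are not independent. In a single test chance gives about 1 in 20. In 6 Gy tumors of day 23, replicate 5 had the lowest mean log2 level of the 37 genes, 4.84. In INDO tumors of day 3, replicate 3 had the lowest, 4.67. In INDO tumors of day 7, replicate 2 had the lowest level of Rfc4, 7.85 CPM.

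In 4 genes the effect of a treatment differed between days by the edgeR test of that difference over the 94 tumors: Rfc3 (adjusted p = 0.0214) and Pola1 (adjusted p = 0.0235) under 6 Gy, and Ccne1 (adjusted p = 0.00377) and Mcm2 (adjusted p = 0.0243) under 6 Gy + INDO.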

How the results depend on the processing

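Counts below are of the 37 genes called, and the cause of a change was not tested unless fewer tumors were fitted. Shares of all genes are not set beside them. Housekeeping scaling gave 0 genes for 6 Gy and for INDO on day 1, 4 higher for 6 Gy and 2 lower for 6 Gy + INDO on day 3, and on day 7 1 for 6 Gy, 2 higher for INDO in place of 8 lower, and 12 for 6 Gy + INDO (5 higher, 7 lower). Over days 6 Gy + INDO had 12 against 6 Gy and 0 against INDO, 4 for the effect of 6 Gy + INDO differing between days and 24 for controls between days, and it turned Mcm2 in 6 Gy + INDO tumors to 0.026 on the log2 scale (adjusted p = 0.808 by edgeR). DESeq2's size factors gave 0 for 6 Gy on day 1 and 2 on day 3. DESeq2's test gave 2 for 6 Gy and 2 for INDO on day 1, 2 for 6 Gy on day 3, 1 for 6 Gy on day 7 and 4 for 6 Gy + INDO on day 15. With all 94 tumors in 1 fit, day 1 gave 1 for 6 Gy + INDO and 0 for 6 Gy and for INDO, day 3 gave 2 for 6 Gy and day 23 gave 2 higher for 6 Gy + INDO. With no filter the counts were 0 for 6 Gy on day 1, 2 for INDO on day 7 and 5 for INDO over days. A 2-fold limit with an unadjusted p under 0.05 left 0 in each comparison that had calls.

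Without the 11 tumors with receptor gene counts, 6 Gy had 0 on day 1 and 1 on day 7, 6 Gy + INDO had 0 on day 3, 5 on day 7 and 15 over days, 10 against 6 Gy and 0 against INDO, and the effects differing between days gave 1 for 6 Gy and 1 for 6 Gy + INDO. With Mki67 as a covariate the counts were 0 for INDO on day 1, 2 for 6 Gy on day 3, 1 for 6 Gy + INDO on day 15, 5 for 6 Gy and 21 for INDO over days, 7 for 6 Gy + INDO against INDO, 1 for the effect of 6 Gy + INDO differing between days and 1 for controls. Over days, leaving out day 1 gave 6 for 6 Gy + INDO against INDO; leaving out day 3 gave 11 against 6 Gy and 0 against INDO; leaving out day 7 gave 1 for INDO, 11 for 6 Gy + INDO and, set against 6 Gy tumors, 11, with 1 against INDO; leaving out day 15 gave 3 higher for 6 Gy; and leaving out day 23 gave 17 for INDO, 4 lower for 6 Gy and 1 for 6 Gy + INDO against INDO.

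Leaving out 1 tumor gave, for 6 Gy + INDO, 6 Gy and INDO in that order, 1 to 4, 0 to 7 and 0 to 2 on day 1, 1 to 9, 0 to 3 and 0 on day 3, 11 to 26, 0 to 1 and 1 to 17 on day 7, 0 to 1, 0 and 0 on day 15, and 0 throughout on day 23. Leaving out 1 replicate number gave 16 to 25 for 6 Gy + INDO, 0 to 4 for 6 Gy and 0 to 18 for INDO over days, 13 to 26 against 6 Gy, 0 to 7 against INDO, 0 to 7 for the effect of 6 Gy + INDO differing between days, 0 to 8 for that of 6 Gy and 0 for that of INDO, 0 to 21 for controls and 21 to 31 for the slope on Mki67.

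The labels do not say whether replicate numbers pair the tumors. Of the same-number pairs on days 1, 3, 7, 15 and 23, 6 of 27, 10 of 27, 7 of 30, 11 of 24 and 12 of 24 had a correlation of deviations over 0.1. The median correlation of these pairs was 0.009, 0.025, 0.009, 0.059 and 0.106. For pairs of different numbers it was 0.023, -0.027, 0.005, -0.011 and -0.025. A pairing was not tested. With the number as a block the counts were 0 for 6 Gy and 0 for INDO on day 1, 1 for 6 Gy on day 3, 2 for INDO on day 7 and 1 for 6 Gy over days, and 15 for 6 Gy + INDO on day 7 and 24 over days.

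Within 6 Gy + INDO tumors r with Mki67 was 0.44 for Mcm10, 0.45 for Cdc6 and -0.62 for Cdt1, and within controls 0.75 for Mcm10 and 0.74 for Cdc6. Over all alternatives, 423 counts of called genes were unchanged or changed by at most 1.5 times, and these include counts of 0 that stayed at 0. A further 142 changed by more, or from or to 0, and 1 turned direction. Day 23, with 3 controls and standard errors of 0.147 to 0.368 over the 37 genes, allowed the least precise differences of the 5 days.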
